A study of Mus musculus with 10 samples.

Results

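Long H3K4me1 regions without H3K27ac were stretches of chromatin in mouse mast cells that carried called H3K4me1 over 1500 bp or more and no called H3K27ac, although H3K27ac was called elsewhere within 100 kb. They were selected on the deposited peaks themselves. Overlapping peaks of the 2 H3K4me1 lists were joined, and a joined region was a consensus region where it held a peak of both lists. Of 42131 consensus regions on chromosomes 1 to 19, 1219 (2.89%) were at least 1500 bp long, overlapped no peak of the 3 H3K27ac lists by even 1 bp and lay within 100 kb of such a peak. Together they spanned 2.44 Mb of the 32.6 Mb of consensus H3K4me1. Length, overlap with H3K27ac and distance up to 100 kb were therefore part of the choice, and the values given for them are descriptions with no test.

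The cells were bone marrow-derived mast cells, grown for 4 weeks in 20 ng/ml interleukin-3 from the marrow of C57BL/6 mice aged 6 to 8 weeks, with more than 99% positive for FcεRI and c-Kit by flow cytometry. Chromatin was immunoprecipitated for H3K4me1 (2 libraries) or H3K27ac (3 libraries), each with its own input library. The labels record no treatment, and nothing says that the libraries of a mark came from separate cultures or animals. The spread between lists may therefore be technical.

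H3K4me1, monomethylation of lysine 4 of histone H3, is deposited mainly by MLL3 and MLL4 and is found at enhancers and around promoters. H3K27ac, acetylation of lysine 27 of the same histone by CBP and p300, is found at enhancers and promoters in use. Enhancers that carry H3K4me1 and lack H3K27ac are often called primed, and those that carry both are called active. These classes come from other work, and here a region counts as lacking a mark where no peak was called.

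The H3K27ac lists held 39837, 34035 and 30599 peaks from 16356587, 11413241 and 10457047 immunoprecipitate tags in replicates 1, 2 and 3. The H3K4me1 lists held 70726 and 59430 peaks from 19513552 and 14685161 tags in replicates 1 and 2. Single peaks in the H3K4me1 lists were short, with medians of 356 and 437 bp, and 1788 (2.53%) and 2257 (3.80%) reached 1500 bp. Positions are those of the mm9 build, counting from 1. Genes and sequence at these positions were not analysed here.

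Long H3K4me1 without H3K27ac was a sizeable class among long regions. The consensus held 3420 regions of 1500 bp or longer, and the 1219 were 35.6% of them (95% Clopper-Pearson interval 34.0 to 37.3%). Another 99 (2.89%) overlapped no H3K27ac peak but lay beyond 100 kb of one. H3K27ac consensus, a joined H3K27ac region with a peak of all 3 lists, overlapped 1483 (43.4%), and 619 (18.1%) met H3K27ac peaks only outside that consensus. Over consensus regions of any length, 24042 of 42131 (57.1%) had no H3K27ac peak and one within 100 kb. Both shares use values of the choice itself. With the H3K4me1 consensus replaced by 1 list, the class held 754 regions without replicate 1 and 596 without replicate 2. All intervals here cover counting error only.

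The share without H3K27ac was lower in each longer class. It was 63.9% (9697 of 15184) below 500 bp, 58.0% (10403 of 17935) from 500 to below 1000 bp and 48.7% (2723 of 5592) from 1000 to below 1500 bp. It was 40.8% (795 of 1950, interval 38.6 to 43.0%) from 1500 to below 2000 bp, 31.8% (349 of 1097) from 2000 to below 3000 bp and 20.1% (75 of 373, interval 16.2 to 24.5%) from 3000 bp. The share with H3K27ac consensus ran the other way, at 19.5% in the shortest class and 62.5% in the longest. A longer region offers more bases for an overlap, and the part of that was not tested. From the shortest class to the longest, 0.828, 0.526, 0.388, 0.325, 0.278 and 0.203 regions with an H3K27ac peak were counted per kb of H3K4me1. Each region counted once however long it was. The count per kb is thus bound to be low in long classes and does not correct for length.

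**Figure D1:**
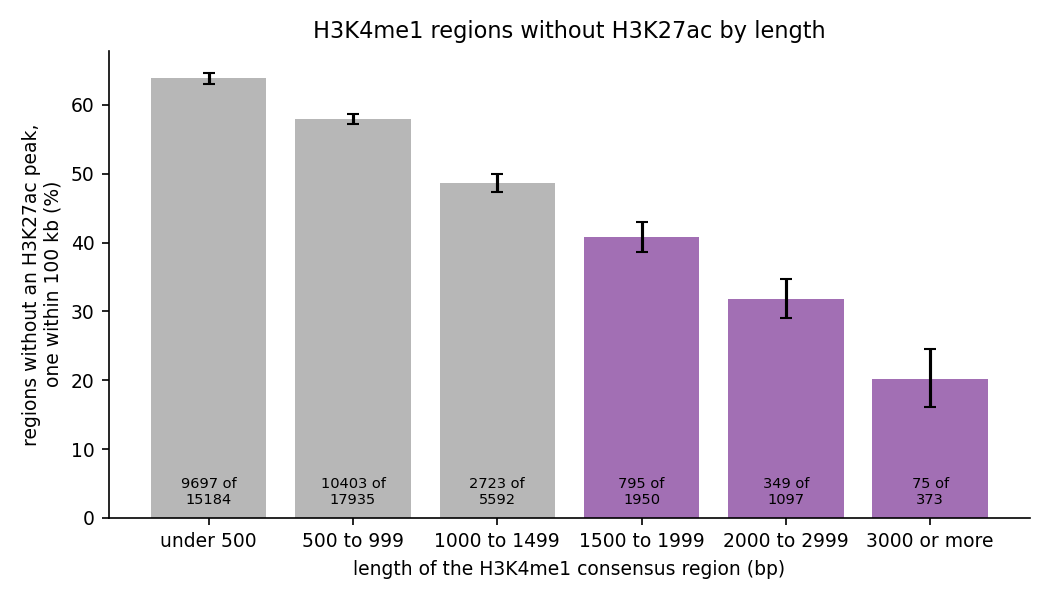
Share of the H3K4me1 consensus regions in each of 6 classes of length (x axis, bp) that overlapped no H3K27ac peak and lay within 100 kb of one (y axis, percent), with 95% Clopper-Pearson intervals and the counts in the bars. The share was 63.9% below 500 bp and 20.1% from 3000 bp, and the 3 purple bars from 1500 bp hold the 1219 long regions without H3K27ac.

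Most of the 1219 regions lay near the lower limit of length. Their lengths were 1500 bp at the lowest, 1813 bp at the median and 6653 bp at the highest, with an upper quartile of 2189 bp. In all, 795 (65.2%) were shorter than 2000 bp, 349 (28.6%) were from 2000 to below 3000 bp, 75 (6.15%) were 3000 bp or longer and 11 reached 4000 bp. Long regions with H3K27ac consensus had a median of 2030 bp and reached 10453 bp, and the median over all consensus regions was 611 bp. The limit ran through a dense part of the distribution. The 257 regions below 1600 bp were 21.1% of the class, and 366 regions from 1400 to below 1500 bp met every other condition.

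Just inside the length limit lay 1500 bp regions on chromosome 5 from 124358068 to 124359567 and on chromosome 6 from 39821373 to 39822872, and a 1501 bp region on chromosome 11 from 114546833 to 114548333. Just outside, 1 bp shorter than the limit, lay 3 regions, on chromosome 11 from 119798907, on chromosome 16 from 29734747 and on chromosome 19 from 55774747. Beyond the distance limit, the nearest was a region on chromosome 19 from 54119037, at 100022 bp from an H3K27ac peak.

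H3K4me1 in the 1219 regions stood higher over input than in short regions without H3K27ac and lower than in long regions with it. Height is given as the highest fold enrichment of a region's peaks in a list, the authors' ratio of tag pileup to local background, and is not comparable between lists. In H3K4me1 replicate 1 it was 2.91 at the lowest, 8.35 at the median and 17.0 at the highest. The median was 9.45 in long regions with H3K27ac consensus and 6.56 in short regions without H3K27ac. In replicate 2 it was 2.76 at the lowest, 7.69 at the median and 16.3 at the highest, against medians of 8.26 in long regions with H3K27ac consensus and 6.16 in short regions without H3K27ac. Both lists gave the same order of the 3 classes, and the classes overlapped widely. A region with more peaks has more values from which the highest is taken, and the part of that was not tested. With the mean fold of a region's peaks, the medians in that order were 7.66, 8.46 and 6.52 in replicate 1. In replicate 2 they were 7.28, 7.78 and 6.14.

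Regions of the class were among the highest H3K4me1 of the cells more often than short regions without H3K27ac and less often than long regions with it. Of the 1219, 199 (16.3%) in replicate 1 and 266 (21.8%) in replicate 2 fell in the top 10% of all consensus regions by fold. Among long regions with H3K27ac consensus the counts were 460 (31.0%) and 428 (28.9%), and among short regions without H3K27ac the shares were 6.53% and 7.02%. Tag pileup at the highest summit had medians of 36.4 and 31.3 in the 1219 regions, against 26.0 and 23.1 in the short ones. Within the class, longer regions also stood higher: the median fold in replicate 1 was 8.05, 8.67 and 9.71 in the classes from 1500, 2000 and 3000 bp, and in replicate 2 it was 7.54, 7.78 and 8.28. The share with 2 or more peaks rose over these classes too, from 35.2% to 53.3% in replicate 1 and from 18.7% to 45.3% in replicate 2. Its part in the higher folds was not tested.

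**Figure D2:**
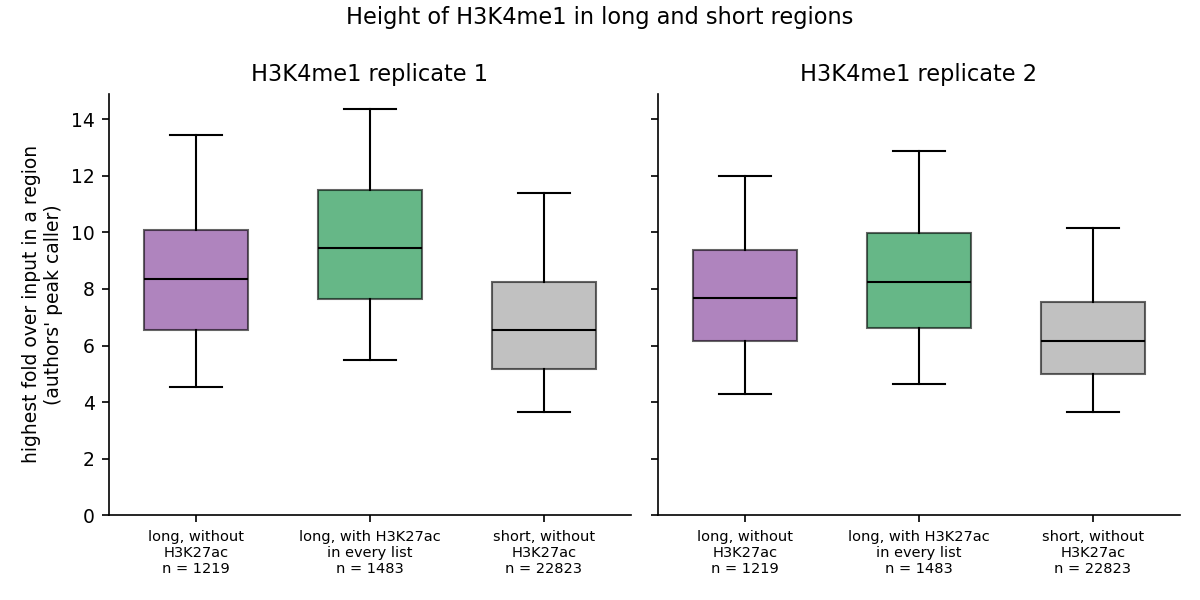
Highest fold enrichment over input (y axis, the authors' ratio) in H3K4me1 replicates 1 and 2 for the long regions without H3K27ac and, to their right, long regions with H3K27ac consensus and short regions without H3K27ac; boxes give quartiles and the median, whiskers the 5th and 95th percentiles. Long regions without H3K27ac had medians of 8.35 and 7.69, below the 9.45 and 8.26 of long regions with H3K27ac consensus and above the 6.56 and 6.16 of short regions without H3K27ac.

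The length of a region often came from one list more than from the other. The estimated fragment length was 203 bp in replicate 1 and 255 bp in replicate 2, and its part in the lengths was not tested. A single peak of 1500 bp or more was present in both lists in 296 regions (24.3%), in replicate 1 alone in 268 (22.0%) and in replicate 2 alone in 431 (35.4%). In the remaining 224 (18.4%) no single peak was that long, and the region reached its length by joining overlapping peaks of the 2 lists. Each list had exactly 1 peak in 542 regions (44.5%). Replicate 1 had at least 2 peaks in 472 (38.7%), replicate 2 in 286 (23.5%) and both lists in 81 (6.64%).

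Replicate 1 covered a median of 85.9% of a region and replicate 2 a median of 92.5%, and bases called in both lists made up a median of 69.4%. Over all consensus regions these medians were close, at 84.3%, 93.6% and 70.2%. Shared bases made up a median of 76.4% in long regions with H3K27ac consensus. In 357 regions (29.3%) each list covered at least 80%, and in 237 (19.4%) bases called in both lists made up less than 50%. The breaks between peaks of a list inside a region were short. Replicate 1 had 547 such breaks of 155 to 1274 bp with a median of 226 bp, and replicate 2 had 316 breaks of 167 to 1705 bp with a median of 262 bp. The smallest break anywhere in those 2 lists was likewise 155 and 167 bp, each 1 bp above the tag length in the file header (154 and 166 bp), so shorter dips in signal were not written as breaks.

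The highest H3K4me1 summits of the lists lay farther apart in bp than in short regions. The median place of the highest summit was 30.1% of the length from the nearer end in replicate 1 and 30.0% in replicate 2. The highest summits of the 2 lists lay a median of 268 bp apart, against 57 bp in short regions without H3K27ac. Length, which was part of the choice, limits this distance, and its part in the difference was not tested. As a share of the length of the 1219 regions, the distance between these summits had a median of 13.9%. They lay within 200 bp of each other in 549 regions (45.0%) and within 1000 bp in 1086 (89.1%). Over all 1219 regions, the highest summit was on the side of the centre facing the nearest H3K27ac peak in 616 regions (50.5%, interval 47.7 to 53.4%) in replicate 1 and in 608 (49.9%, interval 47.0 to 52.7%) in replicate 2. Among the 156 regions within 1 kb of H3K27ac the counts were 88 (56.4%, interval 48.2 to 64.3%) and 85 (54.5%, interval 46.3 to 62.5%). Among the 355 from 5 to 20 kb they were 167 (47.0%, interval 41.8 to 52.4%) and 154 (43.4%, interval 38.2 to 48.7%), with the interval of replicate 2 alone below 50%. Distance classes were not tested against each other. From 1 to 5 kb the shares were 47.4% and 52.6%, and from 20 to 100 kb they were 53.4% and 51.8%.

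Presence in the second H3K4me1 list was read independently by choosing regions in 1 list alone. Long regions without H3K27ac chosen in replicate 1 held a peak of replicate 2 in 593 of 596 cases (99.5%, interval 98.5 to 99.9%), against 26050 of 43387 (60.0%) of the shorter ones, with a background of 60.6% over both. Chosen in replicate 2, 749 of 754 (99.3%, interval 98.5 to 99.8%) held a peak of replicate 1, against 24522 of 36152 (67.8%), with a background of 68.5%. Long regions with H3K27ac consensus held such a peak in 823 of 825 (99.8%) and 1041 of 1042 (99.9%). Long stretches with or without H3K27ac were thus called in the other list almost without exception. A longer region offers more bases for a peak, and the part of that was not tested. With 2 lists no test across lists can go below an exact two-sided p of 0.5, so none is given.

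The other list called H3K4me1 over most of a long stretch, but often not as a long stretch. It covered a median of 84.9% of the long regions chosen in replicate 1 and 80.8% of those chosen in replicate 2, against 66.5% and 64.7% of the shorter ones. In long regions with H3K27ac consensus the cover was higher, at 90.0% and 86.4%. The region of the other list was itself 1500 bp or longer in 321 of 596 (53.9%) and 313 of 754 (41.5%). For long regions with H3K27ac consensus these shares were higher, at 67.6% and 53.1%. Folds were read only where the other list held a peak, in 60.0% and 67.8% of the shorter regions and nearly all long ones. There the median highest fold was 7.72 in long regions chosen in replicate 1 and 8.74 in those chosen in replicate 2. In shorter regions it was 6.29 and 6.66. Long regions with H3K27ac consensus reached 8.34 and 9.56 by the same measure. Among regions with a peak in the list that had not set the length, the order of the 3 classes was thus the same.

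Acetylation was read independently by choosing long regions with 2 H3K27ac lists and looking in the list left out. Replicate 1 held a peak in 228 of 1425 long regions (16.0%, interval 14.1 to 18.0%), against 2240 of 24567 short ones (9.12%), with a background of 9.50% over both. Replicate 2 held one in 70 of 1279 long regions (5.47%, interval 4.29 to 6.86%), against 869 of 23527 short ones (3.69%), with a background of 3.79%. Replicate 3 held one in 35 of 1248 long regions (2.80%, interval 1.96 to 3.88%), against 501 of 23216 short ones (2.16%), with a background of 2.19%. In each list most long regions stayed without a peak. The lists rank the same way by tags used and by number of peaks, and the part of depth in these shares was not tested.

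The long regions held a peak of the left-out list more often than the short ones in 3 of 3 lists, by 6.88, 1.78 and 0.646 percentage points (mean 3.10 ± 3.32, SD, n = 3). The exact two-sided sign test gave p = 0.25, the smallest that 3 lists allow. Measured per base the direction was the other way. Peaks of the left-out list covered 3.97%, 0.971% and 0.436% of the bases of long regions in replicates 1, 2 and 3, against 4.38%, 1.44% and 0.818% of the bases of short regions, a mean difference of -0.420 ± 0.0482 percentage points (exact p = 0.25, lower in 3 of 3 lists). In a central window of 501 bp the shares were 9.75%, 2.89% and 1.44% in long regions against 8.65%, 3.48% and 2.05% in short ones, a mean difference of -0.0333 ± 0.982 (exact p = 1). The last 2 measures were added after the first was seen. The sign of the difference thus changed with the measure.

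A peak of the left-out list anywhere in a region was most frequent close to H3K27ac of the other lists, in long and short regions alike. Such peaks were low in both kinds of region beside all peaks of their lists. For replicate 1 the share of long regions was 31.8% within 1 kb of a peak of the other 2 lists, 20.1% from 1 to 5 kb, 15.8% from 5 to 20 kb and 7.44% from 20 to 100 kb, against 22.7%, 7.93%, 6.09% and 4.03% of short regions. For replicate 3 the shares in the nearest and farthest class were 7.24% and 1.61% of long regions, against 6.78% and 0.428% of short ones. In the central 501 bp, the shares for replicate 1 were 11.7%, 12.2%, 12.6% and 4.75% of long regions, nearest class first. Those of short regions were 21.6%, 7.59%, 5.79% and 3.71%. In that window the nearest class of long regions lay below that of short regions in 3 of 3 lists. From 1 to 5 kb and from 5 to 20 kb, long regions lay above short ones in 3 of 3 lists. From 20 to 100 kb they lay above in replicates 1 and 3 and below in replicate 2. The centre of a long region lies farther from its own ends, and the part of that was not tested. Median folds of the peaks found in long regions were 6.29, 5.62 and 5.42 in replicates 1, 2 and 3, below the medians of 7.93, 6.80 and 7.54 over all peaks of those lists. Those found in short regions had medians of 6.45, 5.53 and 5.93, also below the medians of the lists.

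**Figure D3:**
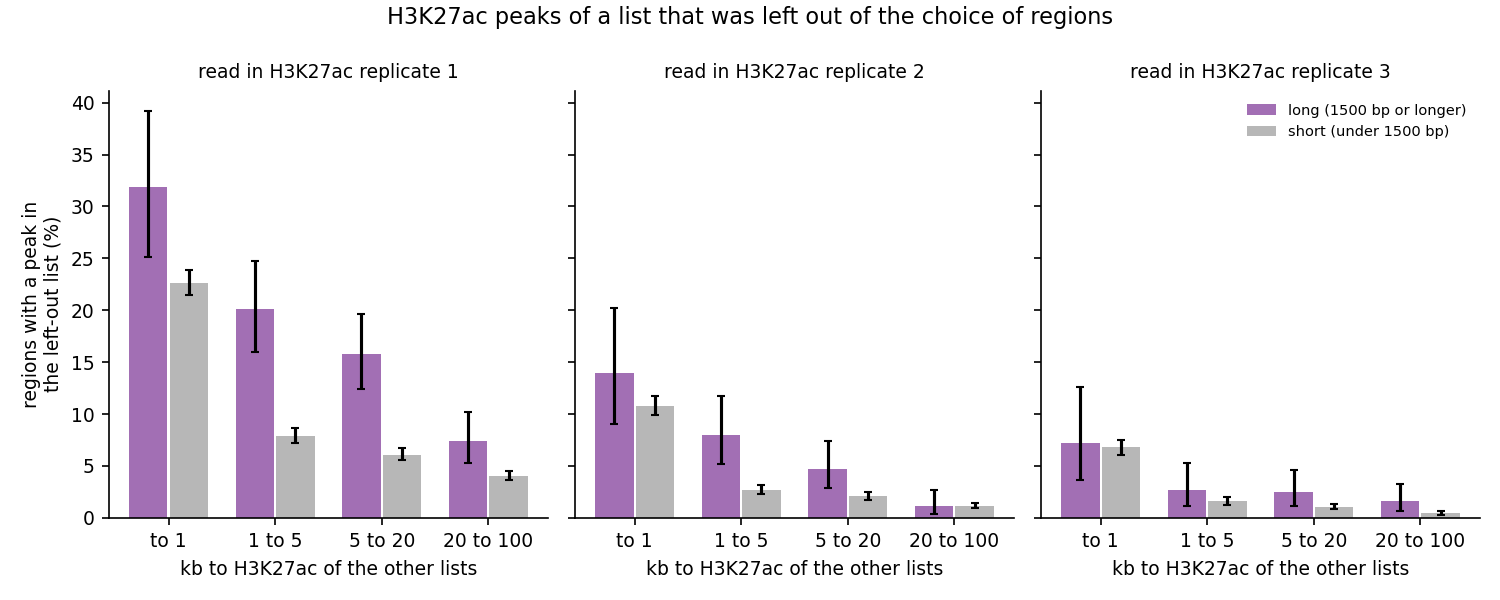
Share of regions holding a peak of the H3K27ac list left out of their choice (y axis, percent), for long regions (purple) and short regions (grey) by distance to the nearest peak of the other 2 lists (x axis, kb), a panel per left-out list, with 95% Clopper-Pearson intervals. In replicate 1 the long regions had 31.8% in the nearest class and 7.44% in the farthest, against 22.7% and 4.03% of short regions.

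Most of the 1219 regions did not adjoin a called H3K27ac peak. The nearest H3K27ac peak of any list lay at 4 bp at the lowest, 10238 bp at the median and 99953 bp at the highest, and short regions without H3K27ac had a median of 7700 bp. Within 1 kb lay 156 regions (12.8%, interval 11.0 to 14.8%), from 1 to 5 kb 287 (23.5%), from 5 to 20 kb 355 (29.1%) and from 20 to 100 kb 421 (34.5%). The shares of short regions were 20.6%, 22.1%, 27.2% and 30.0%. The median H3K4me1 folds of the 1219 regions from the nearest to the farthest class were 8.67, 8.07, 8.26 and 8.50 in replicate 1. In replicate 2 they were 7.42, 7.69, 7.79 and 7.79. Height thus had no order by distance shared by both lists, and this was not tested.

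The neighbourhood of the regions held more H3K4me1 regions than that of short regions and the same median number of H3K27ac regions. Within 100 kb lay a median of 16 other H3K4me1 consensus regions, against 12 around short regions, while both had a median of 10 joined H3K27ac regions. Another H3K4me1 consensus region lay within 12500 bp of 1061 regions (87.0%), against 77.0% of short ones. The nearest H3K27ac region itself overlapped H3K4me1 consensus for 631 (51.8%, interval 48.9 to 54.6%), against 41.6%. It was called in all 3 lists for 545 (44.7%), in 2 lists for 240 (19.7%) and in 1 list for 434 (35.6%), against 42.4%, 20.3% and 37.3% for short regions.

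Few regions sat between acetylated neighbours. H3K27ac lay within 10 kb on both sides of 166 (13.6%, interval 11.7 to 15.7%), on 1 side of 432 (35.4%) and on neither side of 621 (50.9%), against 16.5%, 38.6% and 44.9% of short regions. The nearest H3K27ac peak had a median fold of 7.82, 6.56 and 7.24 in replicates 1, 2 and 3, against 7.73, 6.53 and 7.22 for short regions. No region with both marks in consensus lay within 100 kb of 325 regions (26.7%), against 29.4% of short ones.

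The longest region lay on chromosome 17 from 56158366 to 56165018 and spanned 6653 bp, with highest folds of 11.1 in replicate 1 and 9.66 in replicate 2. Replicate 2 called it as a single peak of 6593 bp and replicate 1 as 3 peaks, and its nearest H3K27ac peaks lay at 4746, 5115 and 4996 bp in the 3 lists. A 5796 bp region on chromosome 10 from 126420942 had folds of 15.6 and 6.62 and H3K27ac at 3239 bp, and a 5781 bp region on chromosome 12 from 103604432 had folds of 9.22 and 7.96 and H3K27ac at 8224 bp. The longest region that each list called as 1 peak over nearly its whole length was on chromosome 8 from 124835614 to 124840417. It spanned 4804 bp, was covered to 97.7% and 100% and had folds of 10.7 and 10.9.

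The other 6 of the 10 longest were 4521 to 5165 bp long. They lay on chromosome 8 from 125187127 and from 123021091, on chromosome 4 from 45961165, on chromosome 10 from 80922875, on chromosome 13 from 56710915 and on chromosome 3 from 93247418. The chromosome 4 region showed how 1 list can set the distance: replicate 1 had a peak 19879 bp away, while the nearest peaks of replicates 2 and 3 lay at 184052 and 184158 bp. Of the 10 longest, 3 lay within 2.19 Mb on chromosome 8.

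The highest regions were others than the longest, and the 2 sets of 10 shared 0 regions. First by mean rank of fold in both lists was a 1631 bp region on chromosome 4 from 147418919 to 147420549, with folds of 17.0 and 13.7, which placed it 111th and 270th among all consensus regions, and with H3K27ac at 5140 bp. Next came a 3087 bp region on chromosome 14 from 26289138 to 26292224, with folds of 16.3 and 13.0. Its H3K27ac neighbours stood close, at 28, 8049 and 594 bp in replicates 1, 2 and 3. The other 8 had folds of at least 13.0 in replicate 1 and 12.4 in replicate 2, so high H3K4me1 in both lists was present without a call of H3K27ac. Among them a region on chromosome 4 from 149434550 lay 475 bp from H3K27ac, and one on chromosome 5 from 101274417 lay 46303 bp away.

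At the near end of the range, absence of H3K27ac rested on a few bases. The 5 nearest regions lay 4, 7, 12, 15 and 16 bp from a peak, on chromosomes 4, 7, 17, 12 and 5. The region on chromosome 12 from 106209908 lay 15 bp from a peak of replicate 3, and replicates 1 and 2 had none nearer than 9093 and 9528 bp. That on chromosome 5 from 124358068 was also at the length limit, with 1500 bp, and replicate 1 covered 15.1% of it while replicate 2 covered 100%. At the far end, regions on chromosome 5 from 145118053 and on chromosome 17 from 31462125 lay 99953 and 99941 bp from H3K27ac, with folds of 14.2 and 7.66 in the first and 10.8 and 11.0 in the second.

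Long regions without H3K27ac also came in groups. Joined across gaps of up to 12500 bp, 937 stood alone and 282 (23.1%, interval 20.8 to 25.6%) fell into 118 groups, of which 92 held 2 regions, 18 held 3, 3 held 4, 3 held 6 and 2 held 7. An H3K27ac peak lay between the members in 28 of the 118 groups (23.7%). The same grouping was not made for other long H3K4me1 regions, so whether it was particular to this class was not tested. Both groups of 7 were on chromosome 8. The 3 groups of 6 lay on chromosome 8 from 124817058, on chromosome 14 from 26283159 to 26325355 and on chromosome 11 from 72282007 to 72316289, and their members added up to 20.0, 14.9 and 12.6 kb. The group on chromosome 14 had 3 joined H3K27ac regions between its members, none of them called in all 3 lists, and the other 4 groups had 0. Both groups of 7 and the group of 6 with the longest summed length are described in full.

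The first group of 7, on chromosome 8 from 125176968 to 125211586, was 34.6 kb long and held 7 regions of 1573 to 5165 bp that covered 56.8% of it. Their folds were 6.44 to 13.6 in replicate 1 and 3.83 to 11.0 in replicate 2. H3K27ac began 1481 bp beyond its right end, where peaks of any list covered 12.9 kb of the next 25 kb, and the 25 kb to its left held none. The block without called acetylation thus had an acetylated neighbour on 1 side.

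The second group of 7, on the same chromosome from 123021091 to 123053050, was 32.0 kb long and held 7 regions of 1523 to 4678 bp that covered 53.7% of it, with folds of 5.84 to 12.7 and 5.81 to 10.7. It lay between acetylated stretches: H3K27ac ended 1460 bp to its left and covered 17.4 kb of the next 25 kb there, and it began 3011 bp to its right and covered 5.87 kb. The group of 6 on chromosome 8, from 124817058 to 124848785, was 31.7 kb long and held 6 regions of 1743 to 4804 bp that covered 62.9% of it, with folds of 8.46 to 13.5 and 7.28 to 11.5. H3K27ac covered 1.47 kb of the 25 kb to its left and none of the 25 kb to its right. These 3 groups thus had H3K27ac close by on 1 side, on both sides, and only sparsely.

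**Figure D4:**
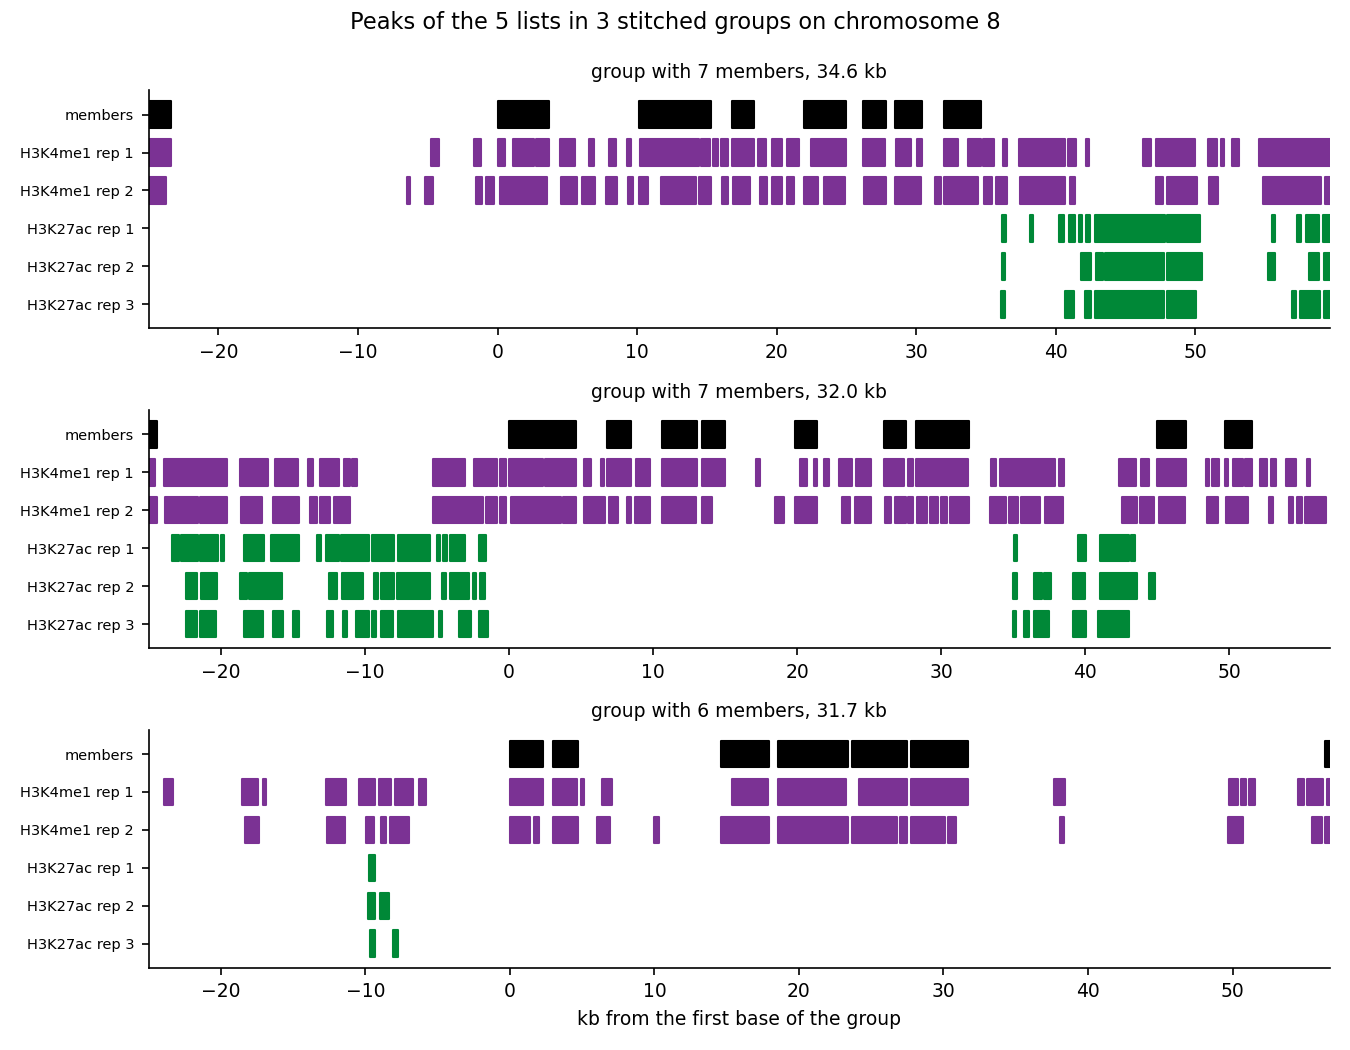
Called peaks along both groups of 7 long regions without H3K27ac and the group of 6 with the longest summed length, all on chromosome 8, with 25 kb on each side (x axis, kb from the start of the group), a row per list; the top row, labelled members, marks the long regions without H3K27ac. No H3K27ac peak falls inside any of the 3 groups, while H3K27ac covers 12.9 kb of the 25 kb right of the first and 17.4 kb of the 25 kb left of the second.

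The stretch of chromosome 8 from the start of the second group to the end of the first was chosen after its values were seen. It held 34 of the 1219 regions (2.79%) among 182 consensus regions, so 18.7% of its H3K4me1 consensus belonged to the class, together with 62 joined H3K27ac regions. Long regions with or without H3K27ac numbered 49 there. Of 484 bins of 5 Mb that held H3K4me1 consensus, 208 held no region of the class. The fullest was chromosome 8 from 120 to 125 Mb, with 36 of 295 consensus regions (12.2%), followed by chromosome 11 from 115 to 120 Mb, with 35 of 483 (7.25%). The second of these bins thus had nearly as many regions of the class among more H3K4me1 regions.

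Chromosomes differed in how many such regions they held. Per Mb, the density was highest on chromosome 11 (137 regions, 1.15 per Mb, exact Poisson interval 0.969 to 1.36), followed by chromosome 17 (82, 0.890 per Mb) and chromosome 8 (108, 0.844 per Mb, interval 0.692 to 1.02). It was lowest on chromosome 13 (18 regions, 0.154 per Mb), and the median over 19 chromosomes was 0.465. As a share of a chromosome's H3K4me1 consensus the order changed. Chromosome 8 was first with 4.75% (interval 3.91 to 5.71%), then chromosome 2 with 3.93% and chromosome 17 with 3.79%, and chromosome 13 was again last with 1.10% (interval 0.652 to 1.73%), beside a median of 2.86%. Of the 108 regions on chromosome 8, 34 lay in the 2.19 Mb stretch described above, with 182 of that chromosome's 2274 consensus regions. The order without that stretch was not computed. Long regions with or without H3K27ac had the same first and last chromosome, with 11.7% of the consensus on chromosome 8 and 4.57% on chromosome 13. Chromosome 11 also had the most H3K4me1 consensus regions per Mb, 34.4.

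Choosing regions in each H3K4me1 list alone, an alternative added after these values were seen, kept both ends of that order. The consensus was joined from these same lists and the H3K27ac lists were unchanged, so this was not an independent reading. Chromosome 8 was first, with 59 of 3769 regions (1.57%) in replicate 1 and 72 of 3090 (2.33%) in replicate 2. Chromosome 13 was last, with 7 of 2751 (0.254%) and 10 of 2323 (0.430%), beside medians of 0.842% and 1.23%. Among long regions only, chromosome 8 had 40.4% without H3K27ac and chromosome 13 had 24.0%, with a median of 35.3% and the highest share, 44.7%, on chromosome 3. No test was made between chromosomes.

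**Figure D5:**
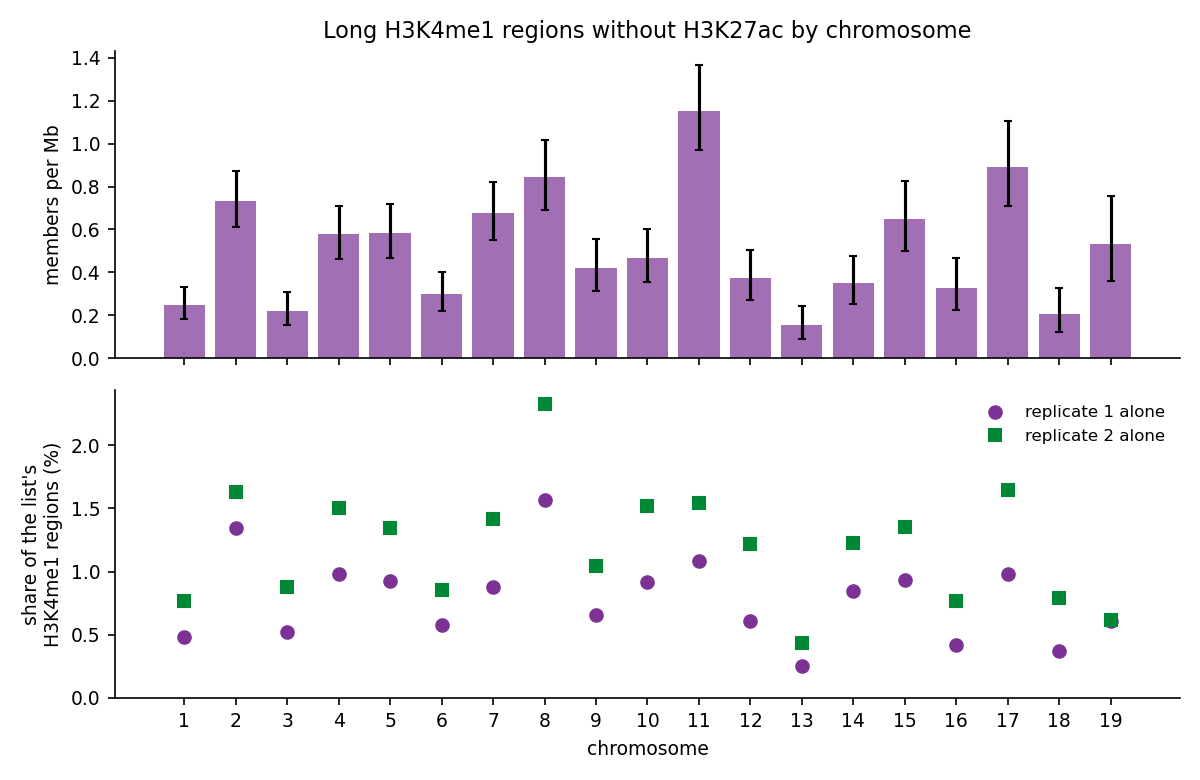
Long regions without H3K27ac on chromosomes 1 to 19 (x axis), as regions per Mb with exact 95% Poisson intervals (top, y axis) and as a share of the H3K4me1 regions of each list when chosen in that list alone (bottom, y axis, percent). Chromosome 11 had the highest density, 1.15 per Mb, and chromosome 8 the highest share in both lists, 1.57% and 2.33%, while chromosome 13 was lowest in both panels.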

How the data were processed

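Crosslinked chromatin of bone marrow-derived mast cells was immunoprecipitated for H3K4me1 or H3K27ac and sequenced, per the labels' protocols. The authors called peaks with MACS2 for each library against its own input and kept those with a q-value up to 0.001, as the file headers state. H3K27ac was called with version 2.1.1.20160309 and H3K4me1 with version 2.0.10.20130306. Caller version and mark therefore cannot be told apart. The submitters' processing notes name the mm9 build, while for the aligner nothing is given in the sources used here. The deposited signal is the tag pileup at the summit, the deposited fold is a ratio of that pileup to the background around it, and the deposited −log10 values are those of each peak's p-value and q-value. No counts per region were used here. Tags used after removal of repeats at a position were 10457047 to 19513552 in immunoprecipitates and 9433267 to 19265001 in inputs, per the file headers. Whether narrow calling split or shortened regions of these broad marks was not tested.

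Peaks were joined from 1 bp of overlap, and distances are differences between facing edges. Named regions were the 10 longest, the 10 with the best mean rank of highest fold in both lists, the 5 nearest to and 5 farthest from H3K27ac, the 3 groups with the most members, ties going to the longest summed length, and regions at the limits. The members, lists and limits were chosen with earlier results of these data known. Shares carry Clopper-Pearson intervals and densities exact Poisson intervals, at 95%. Left-out lists were compared by exact two-sided sign tests over lists. Alternatives were limits of length, distance, q-value and joining, and leaving out each list. The code recovered all 1271 planted members among 6000 simulated regions, and bedtools 2.31.1 found the same 1219 regions. Python 3.11.15, NumPy 2.4.6, pandas 2.3.3, SciPy 1.17.1 and Matplotlib 3.10.9 were used. No genome or annotation of mm9 was used here, so the planned description of genes and sequence was not run.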

Additional observations from a re-analysis of the deposited data

How the results depend on the processing

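Of 59 alternative values, 31 stayed within the margin set for each result (1.5 times for counts) and 28 moved beyond it. A change of direction was looked for only in the left-out H3K27ac difference, whose sign stayed the same in 4 alternatives. The measures per base and in the central window were not among the 59, and their mean differences had the other sign. The number of regions, 1219, was 3942, 424 and 75 with length limits of 1000, 2000 and 3000 bp, 3017 when H3K4me1 peaks were joined across gaps of up to 500 bp, and 776 when no H3K27ac was allowed within 5000 bp. Joining peaks that only touched, an alternative chosen after seeing the data, left it at 1219. Leaving out 1 list gave 596 (without H3K4me1 replicate 2) to 1425 (without H3K27ac replicate 1), with 754 without H3K4me1 replicate 1. The share of long regions, 35.6%, was 43.7%, 28.8% and 20.1% at those length limits, 44.7% with peaks of −log10 q of at least 10 in every list, of both marks, and 33.3% to 41.7% with 1 list left out. The cover by the other H3K4me1 list, 82.9% as the mean of both directions, was 79.8% at 1000 bp. The ratio of the median fold to that of short regions, 1.26, was 1.38 for pileup, 1.63 for −log10 q and 1.18 for the mean fold, and 1.17 and 1.30 at limits of 1000 and 2000 bp. The median distance, 10238 bp, was 18510 bp to H3K27ac consensus, and 8187 to 10476 bp with 1 list left out. The share in groups, 23.1%, was 14.4% and 31.3% for gaps of 5000 and 25000 bp, and 35.1% and 18.9% at limits of 1000 and 2000 bp. The ratio of the densest to the sparsest chromosome, 7.50, was 18.4 at 2000 bp, and at 1000 bp it was 5.13, with chromosome 3 in place of 13 the sparsest. The causes were not tested, beyond the fewer or more regions that a limit itself leaves. The left-out H3K27ac difference, 3.10 percentage points, was 2.08 to 3.91. Depth limits what a missing peak can show, and 2 or 3 lists a mark allow no small p. No paired analysis was possible because the results come from peak lists of different marks, with no test between groups of samples.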

Other observations

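Outside chromosomes 1 to 19, 196 H3K4me1 consensus regions were found, 160 of them on the X chromosome. Of these 196, 3 were 1500 bp or longer, and 2 of the 3 overlapped no H3K27ac peak and lay within 100 kb of one. Both were on the X chromosome.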
